A study of Mus musculus with 12 samples.

Results

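The 10 genes of steroid hormone synthesis were followed in RNA-seq counts from the mouse adrenal cortex. The choice was by name and not by their values, although earlier results of these data were known. They were *Star*, *Cyp11a1*, *Hsd3b1*, *Hsd3b6*, *Cyp21a1*, *Cyp11b1*, *Cyp11b2*, *Fdx1*, *Fdxr*, and *Por*, which are 10 of the 49585 genes counted. All 10 were found by symbol, and all 10 passed the filter on low counts in each comparison. The 12 mice were in 3 groups of 4. Normal diet (ND) mice, numbered 2, 5, 6, and 7, received a low-fat diet for 20 weeks, with 10% of its energy as fat. HFD mice, numbered 1 to 4, received a high-fat diet for 20 weeks, with 60% of its energy as fat. Vasc mice, numbered 1 to 4, received the same high-fat diet for 20 weeks, supplemented with icosapent ethyl, the ethyl ester of eicosapentaenoic acid, during the last 10 weeks. The labels give the genotype Fads2-/- for all 12 mice, whereas the methods of the study describe wild-type C57BL/6J males that were 6 weeks old at the start. *Fads2* was expressed at 455.5 to 2200 CPM (counts scaled by library size) in the 12 mice. Each library came from the cortex of 1 mouse after dissection from the medulla, so that the values are averages over all cell types left in the tissue. In such bulk samples, fewer cells of a type and less RNA per cell cannot be told apart.

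The adrenal cortex makes corticosterone in the zona fasciculata, under the control of adrenocorticotropic hormone (ACTH), and aldosterone in the zona glomerulosa, under the control of angiotensin II and potassium. The StAR protein, encoded by *Star*, delivers cholesterol to the inner mitochondrial membrane, where CYP11A1 cuts off the side chain. The 3β-hydroxysteroid dehydrogenases, encoded by *Hsd3b1* and *Hsd3b6*, then form progesterone, and CYP21A1 adds the 21-hydroxyl group. CYP11B1 makes corticosterone and CYP11B2 makes aldosterone in the last, mitochondrial steps. Mitochondrial P450 enzymes receive electrons from ferredoxin, encoded by *Fdx1*, which is reduced by ferredoxin reductase, encoded by *Fdxr*. P450 enzymes of the endoplasmic reticulum, such as CYP21A1, receive them from cytochrome P450 oxidoreductase, encoded by *Por*.

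Of the 10 genes, 2 pairs are neighboring paralogs that resemble each other in sequence, and their values depend on whether a read of 75 bases can be placed. *Cyp11b1* (ENSMUSG00000075604, chromosome 15 of GRCm38 from 74834125 to 74841643, minus strand) and *Cyp11b2* (ENSMUSG00000022589, chromosome 15 from 74851010 to 74856318, minus strand) were identical at 87.1% of 1503 aligned coding bases. Coding bases 26 to 269, a run of 244, were identical in both and are longer than a read. This run, taken from the GENCODE M21 transcripts, is shown because reads inside it cannot be assigned to either gene.
Cyp11b1 and Cyp11b2: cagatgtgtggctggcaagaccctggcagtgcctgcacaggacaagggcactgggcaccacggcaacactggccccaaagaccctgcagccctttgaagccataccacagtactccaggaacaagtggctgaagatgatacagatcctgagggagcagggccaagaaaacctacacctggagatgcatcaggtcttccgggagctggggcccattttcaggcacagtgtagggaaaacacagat
In all, 14% of the 75-base words of *Cyp11b1* transcripts occurred in another gene, more of them in *Cyp11b2* than in any other gene. These were 432 words, whereas *Cyp11b2* shared 221 words in all. Words were matched on either strand, and *Gml2* overlaps *Cyp11b1* on the other strand. Its part of the 14% was not counted separately. For *Cyp11b2* the share was 14.2%, most of it in *Cyp11b1*. The authors counted reads with a minimum mapping quality of 20, a setting under which reads with several equal placements are left out. The part of the coding sequence with the most differences, 29 in 75 bases, lies within 1 exon at coding bases 508 to 582. It is shown because reads from it separate both genes, with the differing bases in capitals.
Cyp11b1, chr15:74839246-74839320, minus strand: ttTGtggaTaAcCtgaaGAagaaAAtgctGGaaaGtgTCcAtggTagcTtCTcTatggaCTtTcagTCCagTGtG
Cyp11b2, chr15:74853815-74853889, minus strand: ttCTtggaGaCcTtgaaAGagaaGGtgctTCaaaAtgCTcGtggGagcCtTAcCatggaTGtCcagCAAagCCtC
*Hsd3b1* (ENSMUSG00000027871, chromosome 3 from 98852194 to 98859794, minus strand) and *Hsd3b6* (ENSMUSG00000027869, chromosome 3 from 98805504 to 98814443, minus strand) were identical at 90.0% of 1119 coding bases. Their longest identical run was 72 bases, shorter than a read. Words of 75 bases shared with another gene made up 1.35% of *Hsd3b1* and 7.61% of *Hsd3b6*. The gene sharing more of them than any other was *Gm12431* for *Hsd3b1* and *Hsd3b3* for *Hsd3b6*. Their most different 75 coding bases, at positions 87 to 161 and across an exon junction, held 18 differences, again in capitals.
Hsd3b1, chr3:98856143-98857878 with the intron left out, minus strand: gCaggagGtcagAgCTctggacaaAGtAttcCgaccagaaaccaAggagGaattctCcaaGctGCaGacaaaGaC
Hsd3b6, chr3:98807914-98810960 with the intron left out, minus strand: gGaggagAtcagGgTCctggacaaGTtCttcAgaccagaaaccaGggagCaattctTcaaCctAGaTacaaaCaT
*Cyp21a1* (ENSMUSG00000024365, chromosome 17 from 34801348 to 34804561, minus strand) shared 12.9% of its words, more with the pseudogene *Cyp21a2-ps* than with any other gene. *Cyp11a1* (ENSMUSG00000032323, chromosome 9 from 58006411 to 58027023, plus strand) shared 1.48%, and the overlapping *Gm17322* held more of these words than any other gene. The words of *Star* (ENSMUSG00000031574, chromosome 8 from 25806555 to 25815982, plus strand), *Fdx1* (ENSMUSG00000032051, chromosome 9 from 51943306 to 51963556, minus strand), *Fdxr* (ENSMUSG00000018861, chromosome 11 from 115268024 to 115277050, minus strand), and *Por* (ENSMUSG00000005514, chromosome 5 from 135670033 to 135735326, plus strand) occurred in no other gene.

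The 10 genes took 4.94 to 6.92% of all counts in ND, 6.19 to 8.8% in HFD, and 6.59 to 8.59% in Vasc mice. Library totals ranged from 34785979 to 67295963 counts, and the lowest count of any of the 10 genes in any mouse was 1493, for *Hsd3b6*, so that counting error was small beside the spread between mice. Levels between genes were compared as CPM, scaled by the trimmed mean of M values (TMM), per kilobase (kb) of annotated exon. The exon length was not reduced for sequence shared with other genes. The levels of *Cyp21a1* (12.9% of words shared), *Cyp11b1* (14%), *Cyp11b2* (14.2%), and *Hsd3b6* (7.61%) may therefore be too low beside the others. *Hsd3b1* had the highest mean over the 12 mice, 8723 CPM per kb (range 7215 to 10347), followed by *Cyp21a1* at 7035 (5454 to 9113) and *Star* at 4923 (1677 to 8528). The ranges of these 3 genes overlapped. *Cyp11b1* was at 2262 CPM per kb (1219 to 3133) and *Cyp11a1* at 1618 (1042 to 2309), again with overlap. The ferredoxin pair was lower, *Fdxr* at 712.7 CPM per kb (516.1 to 863.1) and *Fdx1* at 624.1 (270.6 to 1174). The lowest were *Cyp11b2* at 184.7 CPM per kb (151.7 to 318.2), *Por* at 118.1 (48.41 to 214.1), and *Hsd3b6* at 46.78 (18.89 to 81.94). Of these, *Hsd3b6* and *Cyp11b2* did not overlap, whereas *Por* overlapped with both. In the plot of levels per exon length, the points of *Star*, *Fdx1*, *Por*, and *Hsd3b6* are spread more widely than those of the other 6 genes.

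**Figure D1:**
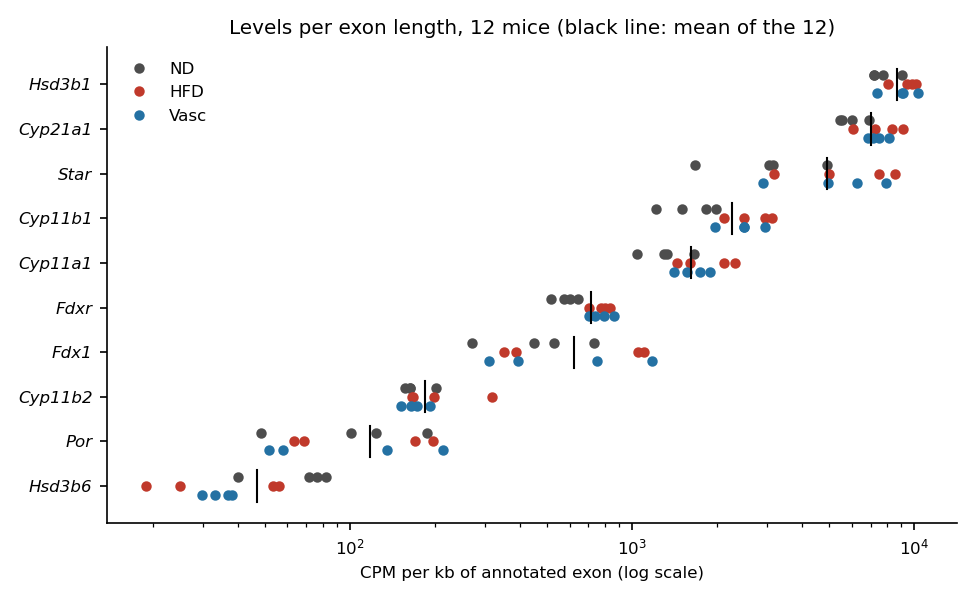
TMM-normalized CPM per kb of annotated exon (x axis, log scale) of the 10 genes (rows) in 12 mice; each point is 1 mouse, colored by group, and the black line is the mean of the 12. *Hsd3b1*, *Cyp21a1*, and *Star* overlap at the top, with means of 8723, 7035, and 4923 CPM per kb, and *Hsd3b6* is lowest with a mean of 46.78.

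Whether a high-fat diet changed the expression of these genes was asked by comparing HFD with ND mice. In the quasi-likelihood test of edgeR, with p-values adjusted by Benjamini and Hochberg's method over all 15909 genes, 0 of the 10 had an adjusted p below 0.05, against 230 of all genes (1.45%). At an unadjusted p below 0.05, 5 of the 10 differed, where the share of all genes was 24.8%. That number was 2 without HFD replicate 3 or 4 or ND replicate 2 or 5, and 3 without ND replicate 6. It was 7 without HFD replicate 1 and 1 with the mean of the chromaffin markers as a covariate. The number among all genes moved too, from 3949 of 15909. It was 3388 of 16128 without HFD replicate 3 and 2839 of 16137 without HFD replicate 4. Without ND replicates 2, 5, and 6 it was 3337 of 16021, 3563 of 16123, and 2711 of 16097. Without HFD replicate 1 it was 4477 of 16096, and with the chromaffin mean 1396 of 15909. The fitted log2 fold change was above 0 in 9 of the 10 genes, with a median of 0.39, whereas 48.2% of all genes were above 0, with a median of -0.01. With the chromaffin mean as a covariate, 7 of the 10 (median 0.21) and 53.5% of all genes were above 0. Several of the 10 genes deviated together between mice (r = 0.95 for *Star* with *Cyp11a1*), so their signs are not separate observations. DESeq2's Wald test called 2 of the 10, *Cyp11b1* and *Fdxr*, and 12.9% of all genes. In 2 of the 10 genes, again *Cyp11b1* and *Fdxr*, the 4 HFD mice were above the 4 ND mice without overlap, as 7.71% of all genes were.

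*Cyp11b1*, the enzyme that completes corticosterone, was at 3857, 5776, 4769, and 6266 CPM in ND mice 2, 5, 6, and 7. In HFD mice 1 to 4 it was at 6712, 7907, 9327, and 9916 CPM, so that the lowest HFD mouse lay above the highest ND mouse. The means were 5167 ± 1073 and 8466 ± 1441 CPM (each n = 4, ± SD), with a fitted log2 fold change of 0.71 (SE 0.18, 95% interval 0.31 to 1.12). edgeR gave an adjusted p of 0.0736 and DESeq2's Wald test gave 0.00931. *Fdxr*, which encodes the reductase of ferredoxin, was at 1448, 1604, 1696, and 1799 CPM in ND and 1970, 2175, 2245, and 2345 CPM in HFD mice. It had the smallest spread of the 10 genes in these groups, with a coefficient of variation of 9.09% in ND and 7.27% in HFD mice. Its log2 fold change was 0.41 (SE 0.10, 95% interval 0.19 to 0.64), and the adjusted p was 0.0659 in edgeR and 0.00818 in DESeq2. Without HFD replicate 1, edgeR's test called both genes, with adjusted p = 0.0377 for *Cyp11b1* and 0.0369 for *Fdxr*, and without any other mouse it called neither.

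*Star*, the cholesterol carrier that is induced acutely by ACTH, was at 6898, 12552, 12968, and 20222 CPM in ND mice. In HFD mice it was at 13074, 20456, 35074, and 30900 CPM. Of the HFD mice, 3 were above every ND mouse, and mouse 1 lay among the ND mice. The means were 13160 ± 5462 and 24876 ± 9985 CPM (each n = 4, ± SD), a fitted log2 fold change of 0.92 (SE 0.37), the largest of the 10 genes, and edgeR gave an adjusted p of 0.173. The 95% interval ran from 0.08 to 1.77. *Cyp11a1*, which catalyzes the first step, was at 5007, 6225, 6364, and 7978 CPM in ND and 6940, 7703, 10201, and 11094 CPM in HFD mice, a fitted log2 fold change of 0.49 (SE 0.19, edgeR adjusted p = 0.161). *Cyp21a1*, the 21-hydroxylase, was at 11904, 11671, 12868, and 14851 CPM in ND and 13019, 15529, 17920, and 19502 CPM in HFD mice, a fitted log2 fold change of 0.36 (SE 0.15, edgeR adjusted p = 0.181). In both genes the groups overlapped, with 2 and 3 HFD mice, respectively, above all ND mice.

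*Hsd3b1*, the abundant 3β-hydroxysteroid dehydrogenase, varied little between mice. It was at 13385, 13394, 14396, and 16834 CPM in ND and 14997, 18278, 17439, and 18848 CPM in HFD mice. Its log2 fold change was 0.26 (SE 0.12, edgeR adjusted p = 0.225), with an interval from -0.02 to 0.53. Its paralog *Hsd3b6*, which in mice is known from the zona glomerulosa, was the single gene of the 10 with a negative value. It was at 138, 147.7, 72.25, and 128.7 CPM in ND and 100.8, 95.97, 45.11, and 34.04 CPM in HFD mice, a fitted log2 fold change of -0.83 (SE 0.37, 95% interval -1.65 to 0.00, edgeR adjusted p = 0.202). HFD mice 3 and 4 were below all ND mice, whereas HFD mice 1 and 2 were above ND mouse 6. *Cyp11b2*, the aldosterone synthase of the zona glomerulosa, was at 265.5, 264.8, 253.8, and 329 CPM in ND and 270.7, 517.1, 270.1, and 323 CPM in HFD mice. Only HFD mouse 2 was above all ND mice. The log2 fold change was 0.30 (SE 0.20, edgeR adjusted p = 0.387), and 0.05 without that mouse.

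*Fdx1* and *Por* varied widely within each group. *Fdx1*, which carries electrons to the mitochondrial P450 enzymes, was at 840.1, 1392, 1635, and 2280 CPM in ND mice. In HFD mice it was at 1088, 1199, 3409, and 3250 CPM, with mice 1 and 2 among the ND mice and mice 3 and 4 above them all. *Por* was at 194.6, 404.8, 495.6, and 751.6 CPM in ND and 253.9, 276.5, 791.7, and 685.6 CPM in HFD mice, so that HFD mice 1 and 2 were again low and mice 3 and 4 high, although only mouse 3 was above all ND mice. The log2 fold changes were 0.55 (SE 0.44, adjusted p = 0.471) for *Fdx1* and 0.13 (SE 0.47, adjusted p = 0.897) for *Por* by edgeR. Their intervals, -0.44 to 1.53 and -0.94 to 1.20, both held the value of *Cyp11b1* as well as 0. The *Fdx1* value was 0.26 without HFD replicate 3, 0.32 without HFD replicate 4, 0.35 without ND replicate 2, and 0.08 with the mean of the zona glomerulosa markers as a covariate. It was 0.78 without HFD replicate 1, 0.76 without HFD replicate 2, and 0.80 without ND replicate 7. Over the 17 alternatives run, the *Fdx1* value ranged from 0.08 to 0.80.

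**Figure D2:**
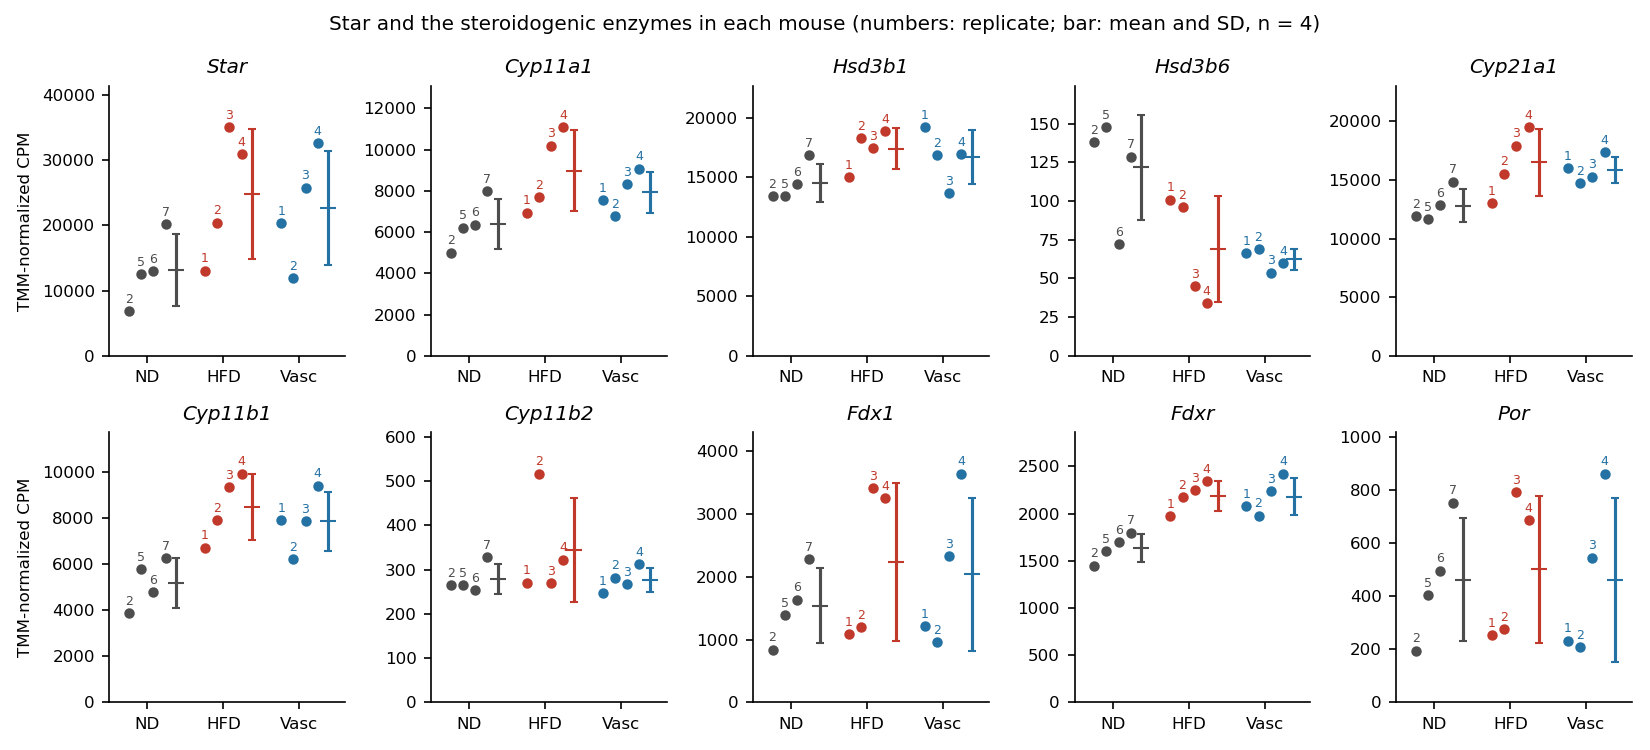
TMM-normalized CPM (y axis, linear and from 0) of each of the 10 genes in the 4 ND, 4 HFD, and 4 Vasc mice; each point is 1 mouse with its replicate number, and the bar beside it is the mean and SD. *Cyp11b1* and *Fdxr* show no overlap between HFD and ND mice, whereas *Star*, *Fdx1*, and *Por* range from 2.68 to 4.14-fold between the lowest and the highest mouse of a group.

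Whether icosapent ethyl changed the expression of these genes under the high-fat diet was asked by comparing Vasc with HFD mice, and the Vasc mice were also compared with ND mice. Both comparisons share a group with the first, so their values are given side by side. In Vasc versus HFD mice, 0 of 15913 genes (0%) passed the threshold of edgeR's test, and 0 of the 10 genes had an unadjusted p below 0.05, a threshold that 221 of all genes (1.39%) passed. DESeq2 called 6 genes (0.0377%) and 0 of the 10. The fitted log2 fold change was below 0 in all 10 genes, with a median of -0.13, whereas 51.1% of all genes were above 0, with a median of 0.004. With the chromaffin mean as a covariate, 7 of the 10 were above 0. Here too, several of the 10 genes deviated together between mice, so their signs are not separate observations. Of the 10, only *Cyp11a1* and *Cyp11b2* stayed below 0 under each of the 18 alternatives run. With the replicate number as a block, 0 of the 10 genes and 0 of all genes passed.

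*Star* was at 20384, 11949, 25822, and 32670 CPM in Vasc mice 1 to 4, within the range of the HFD mice but for mouse 2. Its log2 fold change against HFD was -0.14 (SE 0.37, 95% interval -0.98 to 0.70), which leaves room for a change in either direction. *Cyp11a1* was at 7543, 6780, 8337, and 9089 CPM (-0.18, interval -0.58 to 0.22), *Cyp21a1* at 16030, 14716, 15291, and 17369 CPM (-0.06, interval -0.38 to 0.26), and *Hsd3b1* at 19193, 16833, 13679, and 16904 CPM (-0.06, interval -0.36 to 0.23). *Cyp11b1* was at 7909, 6224, 7870, and 9389 CPM (-0.11, interval -0.49 to 0.27). *Fdxr* was at 2081, 1979, 2236, and 2422 CPM in Vasc mice, and its value against HFD, -0.003, had the narrowest interval of the 10 genes (-0.23 to 0.22). *Cyp11b2* was at 246.5, 281.9, 267.2, and 312.7 CPM, and its log2 fold change of -0.31 (SE 0.20, interval -0.78 to 0.15) became -0.06 without HFD replicate 2. *Fdx1* was at 1219, 962.7, 2330, and 3643 CPM and *Por* at 231.9, 207.8, 544.8, and 861.1 CPM, with mice 1 and 2 low and mice 3 and 4 high in both genes. Their intervals against HFD, -1.32 to 1.04 and -1.36 to 1.11, were the widest.

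*Hsd3b6* was at 66.51, 68.98, 53.7, and 59.86 CPM in Vasc mice, all of which lay inside the range of the HFD mice. The coefficient of variation was 11.1% in Vasc against 49.8% in HFD mice. Against ND mice, the 4 Vasc mice were lower without overlap, with a fitted log2 fold change of -0.96 (SE 0.20, 95% interval -1.42 to -0.51). The unadjusted p of 0.000942 became 0.184 after edgeR's adjustment, whereas DESeq2 called it with an adjusted p of 0.0033. In that comparison, Vasc versus ND, 0 of 15935 genes (0%) passed edgeR's threshold, 4 of the 10 genes and 14% of all genes had an unadjusted p below 0.05, and the groups of 2 genes, *Hsd3b6* and *Fdxr*, did not overlap, as those of 7.73% of all genes. *Fdxr* had a log2 fold change of 0.42 (SE 0.10) against ND, and the adjusted p was 0.202 in edgeR and 0.0192 in DESeq2, which called these 2 of the 10 genes and 2.99% of all. *Cyp11b1* differed from ND by 0.61 (SE 0.18, edgeR adjusted p = 0.241), with 3 of 4 Vasc mice above all ND mice. *Cyp21a1* differed by 0.31 (SE 0.11, 95% interval 0.06 to 0.56, edgeR adjusted p = 0.280), also with 3 of 4 Vasc mice above all ND mice. Without ND replicate 7, 7 of the 10 genes had an unadjusted p below 0.05 in this comparison, and without Vasc replicate 2 the number was 6. It was 3 without ND replicate 2 or 5 or Vasc replicate 4. With the mean of the chromaffin markers, the zona glomerulosa markers, or the immediate-early response genes as a covariate, it was also 3. Among all genes the number was 2225 of 15935 with no mouse left out and no covariate. It was 2477 of 16152 without ND replicate 7 and 2463 of 16122 without Vasc replicate 2. Without ND replicate 2, ND replicate 5, and Vasc replicate 4 it was 2047 of 16057, 2104 of 16138, and 1846 of 16169. With the covariates, in the order named, it was 1874, 2067, and 1574 of 15935.

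**Figure D3:**
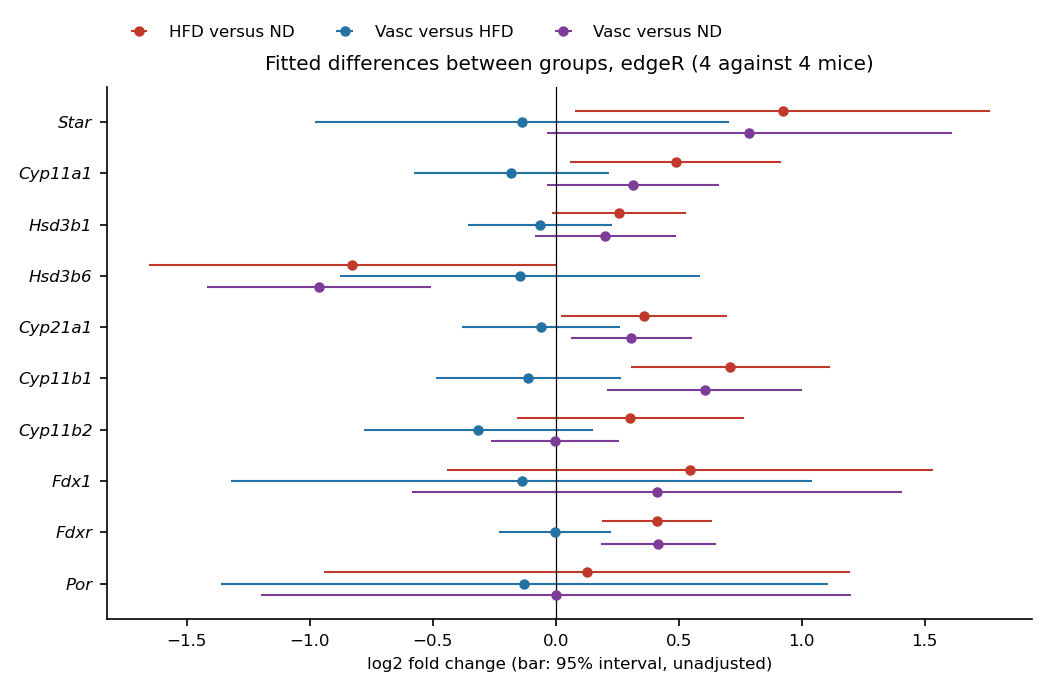
Log2 fold change (x axis) of the 10 genes (rows) in the 3 comparisons by edgeR, with 95% intervals that are not adjusted for the number of genes. The intervals of *Cyp21a1*, *Cyp11b1*, and *Fdxr* lie above 0 in HFD versus ND and Vasc versus ND, those of *Star* and *Cyp11a1* in HFD versus ND alone, that of *Hsd3b6* lies below 0 in Vasc versus ND, and all 10 intervals of Vasc versus HFD cross 0.

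Levels of paralogs were also set against each other within each mouse, as reads per kb. *Cyp11b2* had 134, 89.3, 104, and 102 reads per kb for every 1000 of *Cyp11b1* in ND mice 2, 5, 6, and 7. The ratio was 78.6, 127, 56.4, and 63.4 in HFD and 60.7, 88.2, 66.1, and 64.9 in Vasc mice 1 to 4. All Vasc mice and 3 HFD mice were thus below the lowest ND mouse, and HFD mouse 2, with the high *Cyp11b2* level, was the exception. *Hsd3b6* had 10.6, 11.3, 5.17, and 7.87 reads per kb for every 1000 of *Hsd3b1* in ND mice. It had 6.92, 5.4, 2.66, and 1.86 in HFD and 3.57, 4.22, 4.04, and 3.65 in Vasc mice, so that all Vasc and 2 HFD mice were below the ND mice. The ratios were chosen after the data were seen and were not tested.

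**Figure D4:**
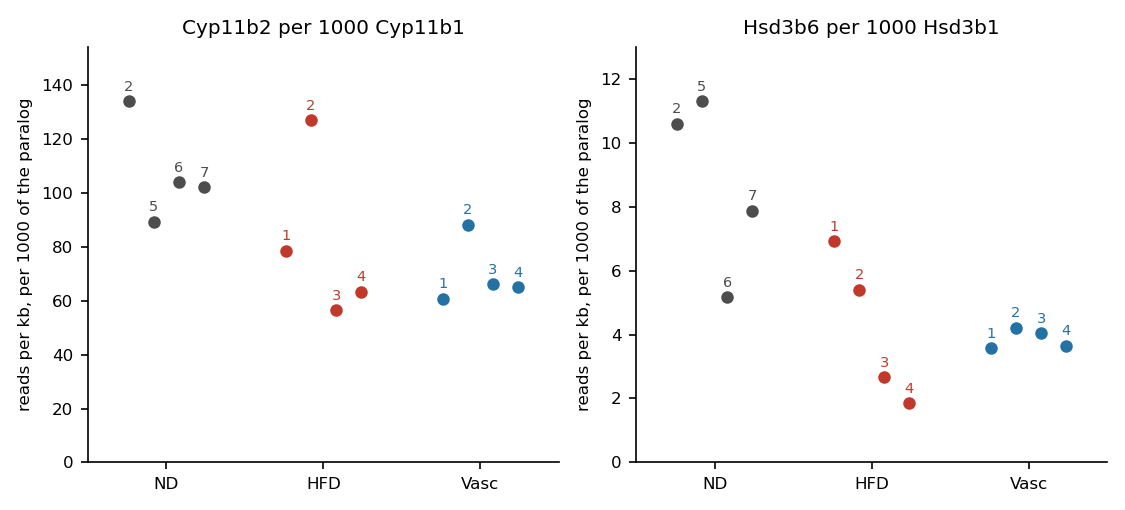
Reads per kb of *Cyp11b2* for every 1000 of *Cyp11b1* (left) and of *Hsd3b6* for every 1000 of *Hsd3b1* (right) in each of the 12 mice, by group with the replicate number. In both panels all 4 Vasc mice lie below the ND mice, from 60.7 to 88.2 against 89.3 to 134 on the left and from 3.57 to 4.22 against 5.17 to 11.3 on the right.

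The spread between mice of 1 group differed from gene to gene. Over the 3 groups, the coefficient of variation was 38.6 to 41.5% for *Star*, 38.8 to 60% for *Fdx1*, and 50 to 66.6% for *Por*. It was 7.27 to 9.09% for *Fdxr*, 9.76 to 13.6% for *Hsd3b1*, and 7.23 to 17.2% for *Cyp21a1*. The other genes lay between or across these ranges, *Cyp11b1* at 16.5 to 20.8%, *Cyp11a1* at 12.6 to 22%, *Cyp11b2* at 10.1 to 34%, and *Hsd3b6* at 11.1 to 49.8%. The deviations of *Fdx1* and *Por* from their group means correlated at r = 0.99 over the 12 mice, and those of *Star* with *Cyp11a1*, *Cyp11b1*, *Fdx1*, *Fdxr*, and *Por* at r = 0.93 to 0.95. Those of *Star* with *Cyp11b2* correlated at r = 0.14. These values are given as a description, because the mice share libraries and scaling across the genes. Searching 13449 other genes for the 3 with the most similar log2 CPM over the 12 mice gave *Mut* (r = 0.99), *Pdha1* (r = 0.98), and *Mccc1* (r = 0.98) for *Star*. For *Cyp11b1* the search gave *Tacr2* (r = 0.98), *Lemd2* (r = 0.98), and *Pyroxd2* (r = 0.98). For *Hsd3b6* it gave *Lrp4* (r = 0.97), *Rasgrp2* (r = 0.95), and *Tead2* (r = 0.93). Without the 2 mice farthest from the median, these 9 values were 0.90 to 0.98. For *Cyp11b2* the highest values were 0.76 for *Rinl*, 0.75 for *A830052D11Rik*, and 0.74 for *Tbxa2r*, which became -0.33, 0.48, and 0.00 without HFD replicate 2 and ND replicate 7, so that they rested on those mice.

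The levels of immediate-early genes and of chromaffin markers also differed between the libraries. Their correlation with the 10 genes was not tested. HFD mice 1 and 2 and Vasc mice 1 and 2, the lower 2 mice of their groups in *Fdx1* and *Por*, had high levels of the immediate-early gene *Fos*, at 319.3 to 431.4 CPM, against 7.215 to 28.11 CPM in the other 8 mice. ND mouse 2 did not share this pattern, as it was the lowest of the 12 mice in *Fdx1* and *Por*, with *Fos* at 8.265 CPM and the lowest immediate-early mean, 3.266 log2 CPM. Vasc mouse 3, higher in both genes, had an immediate-early mean of 6.209 log2 CPM, close to the 6.351 of Vasc mouse 2. *Egr1* set the same mice apart as *Fos*, at 461.5 to 1016 CPM against 23.7 to 278.5 CPM in the others. *Fosb* did not, at 23.1 CPM in Vasc mouse 2 and 236.4 CPM in Vasc mouse 3. The summed level of 8 immediate-early genes was 139.2 to 564.4 CPM in ND, 282.5 to 3566 in HFD, and 195.7 to 2951 in Vasc mice. With the mean of these genes as a covariate, the HFD versus ND log2 fold changes were 0.98 for *Star*, 0.74 for *Cyp11b1*, and 0.42 for *Fdxr*, but -1.41 for *Hsd3b6*, and 0 of the 10 genes passed. Markers of chromaffin cells, the cells of the medulla, were present in every library. Their 12 genes summed to 6611 to 23429 CPM in ND, 3287 to 10513 in HFD, and 5744 to 11316 in Vasc mice. All 12 had a log2 fold change below 0 in HFD versus ND (median -1.28), and 0 of them passed the threshold. With the mean of the chromaffin markers as a covariate, the log2 fold changes in HFD versus ND were 0.52 for *Star*, 0.46 for *Cyp11b1*, 0.31 for *Fdxr*, and -0.82 for *Hsd3b6*, and 0 of all 15909 genes passed edgeR's threshold (1396 at an unadjusted p below 0.05).

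**Figure D5:**
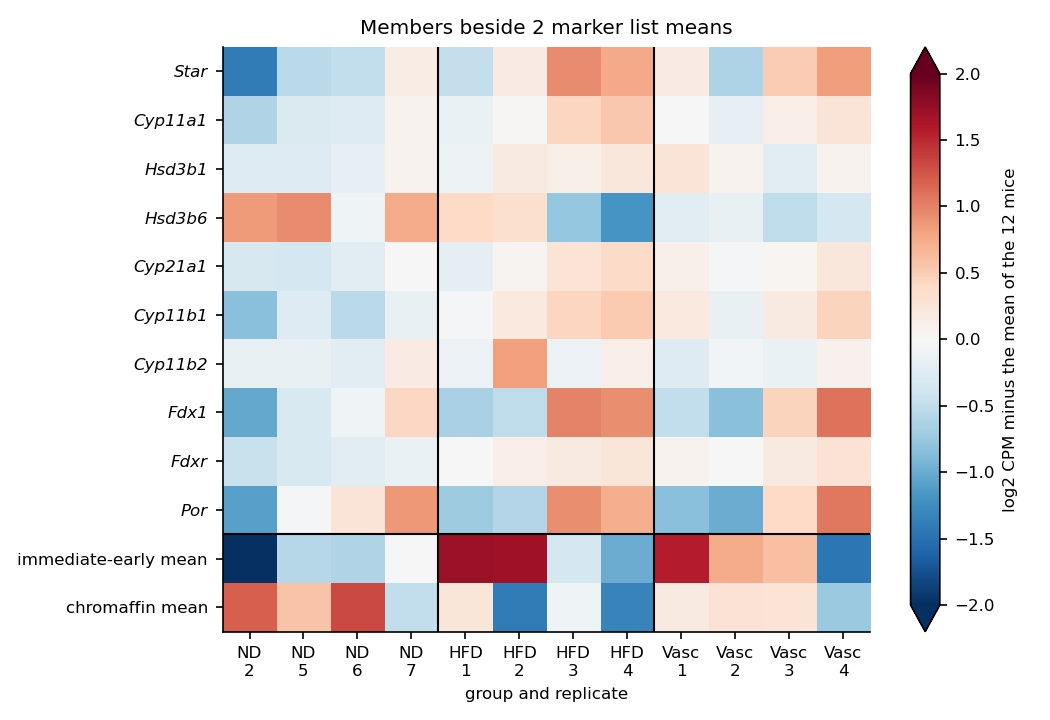
Log2 CPM of the 10 genes minus their mean over the 12 mice (rows above the line), with the means of 8 immediate-early genes and of 12 chromaffin markers below it; columns are mice, and color runs from 2 below (blue) to 2 above (red) the mean. *Fdx1* and *Por* are low in HFD and Vasc mice 1 and 2, where the immediate-early mean is high, and lowest in ND mouse 2, where that mean is also the lowest, whereas Vasc mouse 3 is higher in both genes with an immediate-early mean close to that of Vasc mouse 2.

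Markers of the zona glomerulosa, where *Cyp11b2* is expressed, summed over 7 genes to 959.9 to 1025 CPM in ND, 716.5 to 1146 in HFD, and 769.8 to 1015 in Vasc mice. Those of the zona fasciculata summed over 5 genes to 6436 to 7813, 6643 to 12827, and 6856 to 10616 CPM. For 4 general adrenocortical markers the sums were 3057 to 5731, 3729 to 9462, and 3665 to 7903 CPM. The zona fasciculata sum was mostly *Akr1b7* (means of 4550 and 4942 CPM in ND and HFD mice) and *Abcb1b* (1798 and 4481 CPM). The adrenocortical sum was mostly *Scarb1* (2806 and 5057 CPM), and *Mc2r* and *Mrap* are in both lists. Of the 5 zona fasciculata markers, 4 were higher and 1 lower in HFD versus ND mice, and all 4 adrenocortical markers were higher. In either list, 0 passed the threshold. Of the 7 zona glomerulosa markers, 4 were higher and 3 lower in HFD versus ND mice, and 0 passed the threshold. Their log2 fold changes ran from -1.01 for *Shh* to 0.61 for *Agtr1b*. Markers of the X-zone, a transient zone, were at or near 0, with at most 4 counts of either gene in any library. Summed over their lists, macrophage markers were at 707.5 to 1036 CPM in ND against 478.7 to 554.6 in HFD mice, with 4 of 7 genes lower past the threshold, which 230 of all genes (1.45%) passed, 75 of them lower. No gene passed when any of 6 mice was left out. Capsule and fibroblast markers were at 312 to 519.1 and 210.4 to 312.3 CPM, adipocyte markers at 240.7 to 397.3 and 366.6 to 443 CPM, and endothelial markers at 791.3 to 1153 and 834.5 to 1086 CPM in ND and HFD mice. The adipocyte sum was mostly *Plin1* (means of 156.5 and 194.9 CPM in ND and HFD mice) and *Fabp4* (123.6 and 166.6 CPM). Of the 8 adipocyte markers, 5 were higher and 3 lower in HFD versus ND mice, and 0 passed the threshold. The part of macrophages, fibroblasts, and adipocytes in the values of the 10 genes was not tested.

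Of 15 genes for cholesterol supply and delivery to the mitochondria, 2 rose in HFD versus ND mice and none fell past the threshold, with a median log2 fold change of 0.22, where 1.45% of all genes passed. The HFD and ND groups did not overlap in 3 of the 15 genes and in 13.6% of all genes. *Lipe*, which encodes hormone-sensitive lipase and releases cholesterol from its esters, was at 57.51, 61.46, 52.89, and 50.22 CPM in ND and 89.99, 104.9, 111.5, and 104.4 CPM in HFD mice (log2 fold change 0.88, SE 0.10, edgeR adjusted p = 0.0293). *Npc1*, which encodes an exporter of cholesterol from lysosomes, was at 86.92, 113.3, 97.15, and 108.4 CPM in ND and 134.7, 164.1, 185.6, and 176.7 CPM in HFD mice (0.70, SE 0.12, edgeR adjusted p = 0.0408). In both genes the HFD mice were above all ND mice, but no gene of the table passed without HFD replicate 2, 3, or 4, or without ND replicate 5, 6, or 7. The third gene without overlap, *Npc2*, which encodes a lysosomal cholesterol carrier and was named after its values were seen, was at 254.8, 249.8, 298.1, and 261.1 CPM in ND and 200.6, 191.4, 222.1, and 217.7 CPM in HFD mice (-0.36, SE 0.09, edgeR adjusted p = 0.0736), so that the HFD mice were below all ND mice. Of 9 genes for the ACTH receptor and steroidogenic transcription factors, 0 passed (median 0.36). *Mc2r*, the ACTH receptor, had a mean of 280.1 ± 32.32 CPM in ND and 401.6 ± 43.96 CPM in HFD mice (± SD of 4 mice each; 0.52, edgeR adjusted p = 0.0580) and did not overlap, as was the case for *Gata6* (0.52, adjusted p = 0.0736). Of the 10 genes tested of 11 for electron and NADPH supply, 0 passed (median 0.29), and 4 did not overlap, *Cyb5r3* (0.48), *Me1* (0.46), *Cyb5b* (0.30), and *Nnt* (0.28). Of the 9 tested of 14 genes for other steroid-converting enzymes, 0 passed (median 0.12), and 2 did not overlap, *Hsd17b3* (1.495, at means of 0.1617 and 0.4606 CPM) and *Hsd11b1* (-0.25). *Cyp17a1*, a hydroxylase of cortisol and androgen synthesis that the adult mouse adrenal cortex scarcely expresses, was at 0.8046 to 5.927 CPM in the 12 mice and was named after its values were seen. In Vasc versus HFD mice, 0 genes of these 4 lists passed, and no gene of them separated the groups, with medians of -0.06, 0.07, -0.14, and -0.12 in the same order.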

How the data were processed

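RNA from the adrenal cortex of 12 mice was sequenced from stranded libraries in reads of 75 bases. Per the labels and methods, the authors trimmed the reads with cutadapt, aligned them to GRCm38 with STAR, and deposited raw counts per gene, made with HTSeq 0.6.1p1 on GENCODE M12 genes (reverse strand, union mode, minimum mapping quality 20). Symbols, coordinates, and transcripts came from GENCODE M21, which named 49326 of 49585 genes. The least different of the 66 pairs of libraries had a chi-square per degree of freedom of 26.5, so none was a copy.

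Groups of 4 were compared in 2-group fits with edgeR 4.0.16 in R 4.3.3 (TMM scaling, filterByExpr with a minimum count of 10, robust quasi-likelihood F test, Benjamini-Hochberg adjustment over all genes, threshold 0.05). CPM values were scaled by TMM over the 12 mice. Alternatives were DESeq2 1.42.0, other scalings, filters, and covariates, 1 fit of all mice, and leaving out each mouse. The procedure was tested on simulated counts, drawn for each gene independently. That test does not cover mice that deviate together across many genes. The 10 genes, the lists, and the tests were chosen with earlier results of these data known. Beyond the 10 genes, the text names pathway genes past the threshold or, in a list where none was, genes whose groups did not overlap, and for 4 genes the 3 others with the highest correlation.

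Deviations of same-numbered HFD and Vasc mice from their group means correlated at 0.12 to 0.66 in the 4 pairs, so these groups were also fitted with replicate number as a block. The highest value for mice with different numbers was 0.62, and the labels do not say what a number stands for.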

Additional observations from a re-analysis of the deposited data

Results flagged for a closer look

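ND replicate 7 stood apart from its group in *Cyp11b2*, with 329 CPM against 253.8 to 265.5 CPM in the other 3 ND mice, a gap of 0.845 of the range of the group. It was the only such mouse in the 30 sets of 4 mice examined (10 genes in 3 groups), and chance flags about 1 set in 20. The *Cyp11b2* value of Vasc versus ND mice was 0.00 with this mouse and 0.10 without it on the log2 scale.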

How the results depend on the processing

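In HFD versus ND mice, 230 genes (155 higher, 75 lower) and 0 of the 10 passed edgeR's threshold. The numbers were 2049 (1026 higher, 1023 lower) and 2 of the 10 with DESeq2's Wald test, 556 and 1 in the fit of all 12 mice, 84 (40 higher, 44 lower) and 1 with library totals, 707 and 2 with the zona glomerulosa mean as a covariate, 100 and 0 with the immediate-early mean, 0 and 0 with the chromaffin mean, and from 0 to 918 and from 0 to 2 when leaving out each mouse (918 and 2 without HFD replicate 1, 78 and 0 without ND replicate 2, 0 and 0 without each other mouse). Library totals moved the median log2 fold change of all genes from -0.01 to -0.11. In Vasc versus HFD mice, DESeq2 called 6 genes and each other setting 0. In Vasc versus ND mice, 477 genes and 2 of the 10 passed with DESeq2, 2 and 0 in the fit of all 12 mice, and from 0 to 1 (without Vasc replicate 2) and 0 when leaving out each mouse. The replicate block changed no call (0 of all genes, 696 at an unadjusted p below 0.05). The cause of these moves was not tested. With 4 mice a group, the spread between mice limited the precision of *Star*, *Fdx1*, and *Por*, not depth.

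In HFD versus ND mice, the sign held under every alternative for all of the 10 genes but *Cyp11b2* and *Por*. None of the log2 values that changed sign had passed the threshold. With the chromaffin mean they were -0.12 for *Cyp11b2* and -0.21 for *Por* in HFD versus ND, 0.048 for *Star*, 0.017 for *Hsd3b1*, 0.042 for *Cyp21a1*, 0.008 for *Cyp11b1*, 0.059 for *Fdx1*, 0.065 for *Fdxr*, and 0.048 for *Por* in Vasc versus HFD, and -0.10 for *Fdx1* and -0.57 for *Por* in Vasc versus ND. With the zona glomerulosa mean they were -0.31 for *Por* in HFD versus ND, 0.066 for *Hsd3b6* in Vasc versus HFD, and -0.52 for *Fdx1* and -1.02 for *Por* in Vasc versus ND. With the immediate-early mean they were 0.049 for *Hsd3b6* in Vasc versus HFD and 0.032 for *Cyp11b2* in Vasc versus ND. With library totals they were 0.007 for *Hsd3b1*, 0.014 for *Cyp21a1*, and 0.058 for *Fdxr* in Vasc versus HFD, and -0.057 for *Por* in Vasc versus ND. *Cyp11b2* in Vasc versus ND was 0.005 with DESeq2's test and size factors and 0.003 without a filter. With 10 counts in every mouse, *Fdxr* in Vasc versus HFD was 0.000 and *Por* in Vasc versus ND -0.001. Leaving out each mouse gave -0.19 to 0.46 for *Por* in HFD versus ND. In Vasc versus HFD it gave -0.37 to 0.094 for *Star*, -0.13 to 0.022 for *Hsd3b1*, -0.37 to 0.090 for *Hsd3b6*, -0.16 to 0.025 for *Cyp21a1*, -0.58 to 0.16 for *Fdx1*, -0.061 to 0.038 for *Fdxr*, and -0.62 to 0.20 for *Por*. In Vasc versus ND it gave -0.069 to 0.10 for *Cyp11b2*, -0.034 to 0.68 for *Fdx1*, and -0.50 to 0.36 for *Por*.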
